A study of Piaractus mesopotamicus with 9 samples.

Results

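The miR-15 and miR-16 seed family was followed in the mature miRNAs of pacu myotubes. Members were the entries of the normalised miRNA table whose name, without the species prefix, is miR-15, miR-16, miR-457 or miR-497 with any letter and arm. The rule found 45 of the 1769 entries. Entries with the same count in all 9 libraries were taken once, which left 34 of 953 distinct count profiles. By number, miR-15 had 17 entries (7 profiles), miR-16 had 25 entries (25 profiles), miR-457 had 3 entries (2 profiles), and miR-497 had none in either table.

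miRNAs of this family share a seed, the short stretch near the 5′ end that pairs with target mRNAs. Members were taken here by name with either arm, so dre-miR-15a-3p is among them, and the seeds of single entries were not checked. In mammals miR-15 and miR-16 are made from paired hairpins, repress D-type and E-type cyclins and their kinase partners, and slow entry into S phase, and miR-497 belongs to the same family. miR-457 is described in fish. Myoblasts must leave the cell cycle before they fuse into myotubes, and growth factors and nutrients act on the same checkpoint.

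Pacu (Piaractus mesopotamicus) is a South American freshwater fish. Cells from its fast-twitch muscle were grown for 8 days, by which time they had fused, and all cultures were then deprived of amino acids. The AA group was given amino acids as DMEM after 12 h of deprivation, the IGF1 group was given insulin-like growth factor 1 in amino acid-free medium after 12 h, and the CTR group had the deprivation medium throughout, 36 h in total. The protocol gives 24 h for both supplements and the sample characteristics give 12 h. Each culture was a primary one that pooled the muscle of several juvenile fish, and AA also differed from CTR in its base medium. The study states that its results came from 3 independent cell cultures. There were 3 libraries in each group, and the labels do not say which culture gave which library, so p-values measure only the spread between these libraries.

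Counts over the zebrafish entries ran from 7.63 to 12.9 (in units of 1e6) per library. The muscle markers (miR-499, miR-206, miR-133 and miR-1, 12 of 12 zebrafish entries detected) made up 0.232% ± 0.0413 of the zebrafish counts in AA, 0.0812% ± 0.00490 in IGF1 and 0.0555% ± 0.0122 in CTR (SD, n = 3). Markers of smooth muscle and fibroblasts (miR-143, miR-145, miR-199 and miR-214, 7 of 7 detected) made up 6.83% in AA, 6.64% in IGF1 and 6.42% in CTR, with 5.95% to 7.97% in single libraries. Markers of blood and endothelium (2 of 11 entries at 0) stayed at or under 0.0249%, those of neurons (1 of 8 at 0) at or under 0.00218%, and those of epithelium (3 of 12 at 0) at or under 0.000759%. Fewer cells of a type and less miRNA per cell cannot be told apart in these libraries.

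The names of the members did not map onto one miRNA each. The reference held mature miRNAs of 13 teleost species and none of pacu, and 16 of the 45 entries had the exact counts of another member. For 10 of them the shared counts stood under more than 1 letter, so that ssa-miR-15d-5p had the counts of ccr-miR-15a, and ssa-miR-15c-5p those of abu-miR-15b. Entries that differed by no more than 2% or 2 counts in any library were also grouped, which left 20 groups. The largest group held 12 entries, among them dre-miR-16b, fru-miR-16, tni-miR-16 and ssa-miR-16a-5p, with a mean normalised count of 38506 to 38514 and a spread of at most 0.115% within a library. These 12 are near-copies of a single measurement, and dre-miR-16b is given for all of them. In contrast, ssa-miR-16b-5p had a mean of 2977 normalised counts and went with dre-miR-16a and ccr-miR-16a, so a letter did not mean the same miRNA in every species. The counts do not show which of the entries is the pacu form.

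A further 46 family entries of the raw table were under a mean of 10 counts and were not tested. No count was found for 13 of them in any library, and the highest of the others was ssa-miR-15d-3p with a mean of 9.56 counts. All 6 entries named miR-15a of abu, fru, mze, nbr, oni and tni had a mean of 3.89 counts, although dre-miR-15a-5p was abundant. Counts under a miR-15a name thus lay almost wholly in the zebrafish entry and in the profile that the carp, cod and catfish entries share with ssa-miR-15d-5p.

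Over the zebrafish entries alone, which leaves out the same reads counted again for other species, the family took about 1% of the counts. Its share was 1.12%, 1.03% and 0.878% in AA, 0.967%, 0.945% and 0.818% in IGF1, and 0.992%, 1.11% and 0.943% in CTR. The means were 1.01% ± 0.124 in AA, 0.910% ± 0.0804 in IGF1 and 1.02% ± 0.0874 in CTR (SD, n = 3). The groups overlapped in every comparison. Exact binomial intervals (95%, counting error only) reached at most 0.00687 percentage points to either side, far less than the spread between libraries. For comparison, let-7 took 2.96% in AA, 2.76% in IGF1 and 2.75% in CTR, and miR-17, miR-20, miR-93 and miR-106 together took 0.331%, 0.264% and 0.288%.

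**Figure D1:**
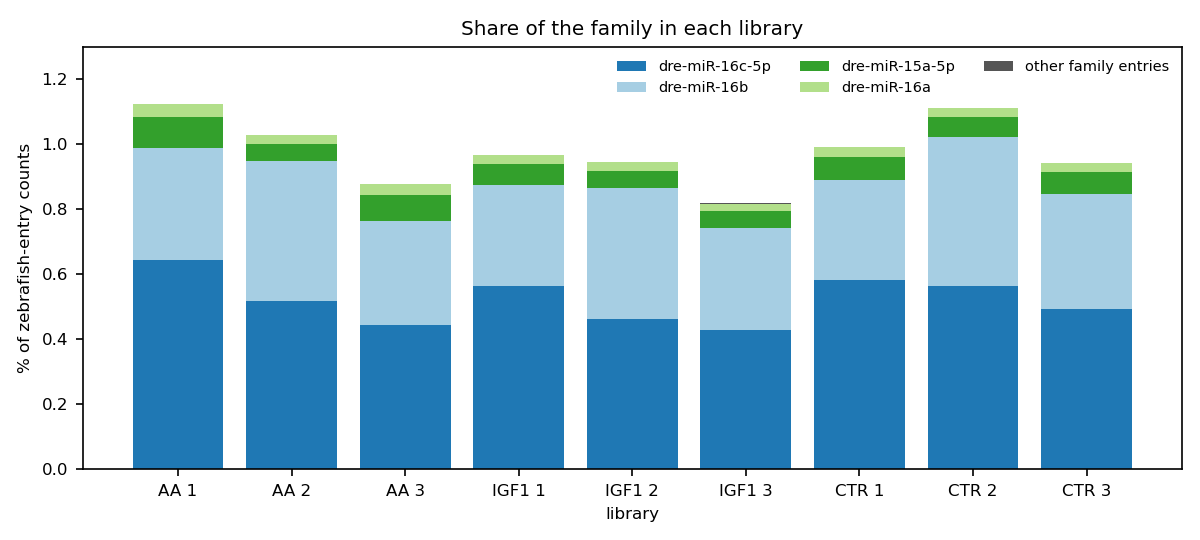
Stacked bars of the family's share of the zebrafish-entry counts (y axis, %) in each of the 9 libraries (x axis). dre-miR-16c-5p and dre-miR-16b fill 87.1% to 92.1% of every bar, and the bars reach 0.818% to 1.12% with overlap between the AA, IGF1 and CTR groups.

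The family was mostly miR-16. dre-miR-16c-5p held 52.8% ± 3.94 of the family's zebrafish counts in AA, 53.2% ± 4.70 in IGF1 and 53.8% ± 4.27 in CTR, and dre-miR-16b held 36.2% ± 5.54, 37.7% ± 5.16 and 36.7% ± 5.19. dre-miR-15a-5p followed with 7.66% ± 2.05 in AA, 6.37% ± 0.573 in IGF1 and 6.76% ± 1.01 in CTR. Among 296 detected zebrafish entries, dre-miR-16c-5p ranked 17, dre-miR-16b 21, dre-miR-15a-5p 55 and dre-miR-16a 75, while dre-miR-15a-3p (189) and dre-miR-457a (190) were far down. These 4 leading entries stood in the same order in each of the 9 libraries. These are counts per mature entry, with no correction for how well each form of a sequence is captured or matched.

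The miR-16 entries are given first, since they carried most of the counts. dre-miR-16c-5p had normalised counts of 53033, 54200 and 46375 in AA, 56738, 52860 and 53657 in IGF1, and 62806, 62553 and 54014 in CTR. The CTR libraries 1 and 2 were the highest of the 9, AA replicate 3 was the lowest, and AA replicate 2 lay just above CTR replicate 3, so the groups overlapped. ccr-miR-16c, the carp form, had 12091, 12715 and 11368 in AA, 12682, 11983 and 11679 in IGF1, and 12064, 13035 and 11936 in CTR, and these values overlapped closely. dre-miR-16b had 28314, 44833 and 33353 in AA, 31512, 46048 and 39171 in IGF1, and 33303, 51156 and 38933 in CTR. Here replicate 2 was the highest and replicate 1 the lowest in every group. ccr-miR-16a, whose group holds dre-miR-16a, had 3099, 2779 and 3476 in AA, 2645, 2919 and 2772 in IGF1, and 3161, 3081 and 2899 in CTR, with overlap in each comparison.

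The 8 remaining miR-16 profiles were lower, with means of 674 to 930 normalised counts. They shared a pattern of their own, in which replicate 2 stood out in IGF1 and in CTR but not in AA. ola-miR-16, chosen after its values were seen, had 597, 561 and 599 in AA, 586, 889 and 629 in IGF1, and 600.3, 978 and 626 in CTR. AA replicate 2 was the lowest of all 9 libraries for it, although dre-miR-16b was high in the same library.

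The miR-15 entries came next. dre-miR-15a-5p had 7977, 5710 and 8288 normalised counts in AA, 6554, 6170 and 6842 in IGF1, and 7820, 6927 and 7649 in CTR. ccr-miR-15a, which is also the profile of ssa-miR-15d-5p, had 1742, 1243 and 1787 in AA, 1369, 1351 and 1400.2 in IGF1, and 1543, 1629 and 1549 in CTR. In both, every IGF1 library was below every CTR library, while AA ran from below IGF1 (replicate 2) to above CTR (replicates 1 and 3). abu-miR-15b, which is also ssa-miR-15c-5p, had only 74.2, 35.3 and 73.7 in AA, 39.8, 48.3 and 49.5 in IGF1, and 54.7, 40.5 and 69.1 in CTR, and gmo-miR-15b-5p followed it with a mean of 55.9. mze-miR-15c-5p, shared with pny-miR-15c-5p, was the lowest member with 19.8, 12.8 and 21.7 in AA, 6.25, 6.04 and 8.25 in IGF1, and 15.4, 8.29 and 5.76 in CTR. Its AA libraries were all above its IGF1 libraries, and CTR spanned both. The raw counts behind these values were 27, 12 and 20 in AA, 8, 6 and 7 in IGF1, and 16, 9 and 4 in CTR. Its mean of 19.7 in AA carried it past the filter of 10, while the means of 7 in IGF1 and 9.67 in CTR were under it, so it was tested only because AA was high. It was the 1 member of 34 with a group mean under the filter.

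The 2 miR-457 profiles differed in level by about 2 orders of magnitude in every library. ipu-miR-457b had 4203, 3320 and 5078 normalised counts in AA, 4008, 3399 and 4185 in IGF1, and 5594, 3654 and 4081 in CTR, with overlap between all groups. dre-miR-457a, shared with ipu-miR-457a, had 28.7, 20.3 and 43.3 in AA, 18.7, 16.1 and 18.9 in IGF1, and 37.5, 24.9 and 34.5 in CTR. In normalised counts all 3 IGF1 libraries were below every AA and every CTR library. The raw counts were 24, 16 and 16 in IGF1, 39, 19 and 40 in AA, and 39, 27 and 24 in CTR. Before scaling, IGF1 replicate 1 (24) was thus above AA replicate 2 (19) and equal to CTR replicate 3 (24). The zebrafish entries of miR-457b had no count, so this miRNA was seen only through its catfish entry.

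**Figure D2:**
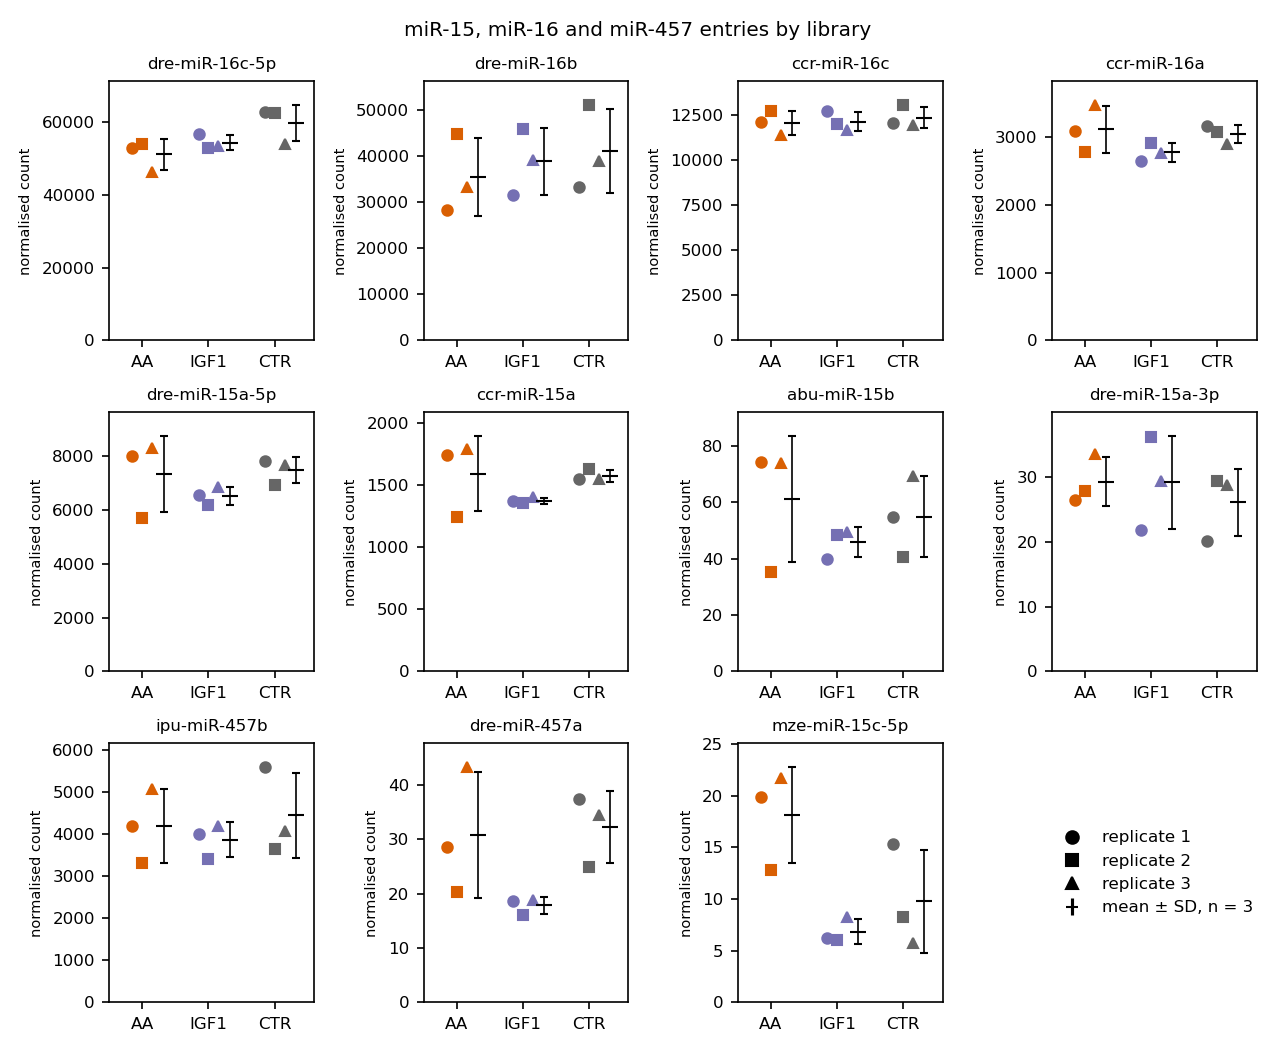
Normalised counts (y axes, linear from 0) of 11 family profiles in the AA, IGF1 and CTR libraries, with symbols for the replicate number and bars for the mean ± SD (n = 3). dre-miR-457a, dre-miR-15a-5p and ccr-miR-15a lie lower in all IGF1 than in all CTR libraries, mze-miR-15c-5p and dre-miR-457a lie higher in all AA than in all IGF1 libraries, and dre-miR-16b is ordered by replicate number in each group.

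For miR-15a and miR-16c of zebrafish, which had both arms in the reference, the 5p arm took nearly all counts. dre-miR-15a-3p had 26.5, 27.8 and 33.6 normalised counts in AA, 21.9, 36.2 and 29.5 in IGF1, and 20.2, 29.5 and 28.8 in CTR, which overlapped. Its share of the counts of both arms was 0.407% ± 0.0773 in AA, 0.448% ± 0.127 in IGF1 and 0.352% ± 0.0856 in CTR (SD, n = 3), from 255 counts of the 3p and 65135 of the 5p arm in all. The lowest library was CTR replicate 1 at 0.257% (exact binomial 95% interval 0.159 to 0.393) and the highest IGF1 replicate 2 at 0.584% (0.409 to 0.807). Unpaired, the means differed by 0.0545 percentage points in AA vs CTR, 0.0963 in IGF1 vs CTR and -0.0418 in AA vs IGF1. The libraries overlapped in each comparison. The exact two-sided permutation test gave p = 0.5 for AA vs CTR, 0.4 for IGF1 vs CTR and 0.6 for AA vs IGF1. The smallest p that 3 against 3 can give is 0.1. Within each replicate number the share was lowest in CTR and highest in IGF1, though replicate 1 had 0.331% in AA and 0.333% in IGF1. With libraries paired by number, the exact permutation test gave p = 0.25 in each comparison, the smallest that 3 pairs can give. That pairing was taken from these data, and the order was not counted over other hairpins. Against 507073 counts of dre-miR-16c-5p, dre-miR-16c-3p had 0, which by counting error alone allows a share of up to 0.000592% for that entry. The zebrafish entry of this arm thus had no count in any group. Whether a pacu form that does not match it was present was not tested. Both arms of dre-miR-457b had 0 counts, and those of ssa-miR-15a were too few to compare, with means of 1.89 for 3p and 0.333 for 5p. ssa-miR-15d also had counts on both arms, with raw means of 1546 for 5p and 9.56 for 3p. Its 3p arm had 13, 12 and 13 raw counts in AA, 9, 9 and 8 in IGF1, and 6, 11 and 5 in CTR. The arm share was not compared for this salmon hairpin.

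AA and CTR were compared to ask whether the family responds to amino acids. The levels of the abundant members differed little: the edgeR log2 fold changes were -0.23 for dre-miR-16c-5p (95% interval -0.45 to -0.00), -0.22 for dre-miR-16b (-0.65 to 0.22), -0.03 for dre-miR-15a-5p (-0.34 to 0.29) and -0.08 for ipu-miR-457b. The difference of dre-miR-16c-5p was 51203 ± 4221 in AA against 59791 ± 5005 in CTR (SD, n = 3). mze-miR-15c-5p, which was tested only through its AA counts and so had to be high there, was at 18.1 ± 4.66 in AA and 9.81 ± 4.98 in CTR, with a log2 fold change of 0.84 ± 0.39 (SE).

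With edgeR's quasi-likelihood test, 0 of the 34 member profiles were called between AA and CTR (Benjamini-Hochberg adjusted p up to 0.05 with a log2 fold change of 0.55 or more in either direction), against 2.31% of the 953 profiles. DESeq2 also called 0 (2.83% of all profiles), and 1 member had an unadjusted edgeR p under 0.05 (6.3% of all profiles did). That member was dre-miR-16c-5p, with an edgeR adjusted p of 0.497. A single member did not overlap between the groups in normalised counts, ola-miR-16, which was lower in AA (4.62% of all profiles were lower without overlap, and 7.24% higher). The gap was narrow, from 599.2 in the highest AA library to 600.3 in the lowest CTR library. Before scaling, its counts were 812, 524 and 553 in AA and 625, 1062 and 435 in CTR, which overlapped. Its log2 fold change was -0.33 with an edgeR adjusted p of 0.775. With replicate 2 left out of all groups the median of the members was -0.01, and 17 of 34 were lower, against a median of -0.22 and 25 lower with all libraries. The corresponding median over all profiles was -0.04, with 57% of them lower, and over the 20 groups of near-identical entries the median was -0.15 with 14 lower. The direction of the groups turned with replicate 2 left out of all groups (median 0.028, 6 of 20 lower) and without composition factors (median 0.045, 10 of 20 lower), so none is given for the family. Leaving out these factors moves the median of all profiles up by 0.20. Relative to the median of all profiles, 23 of 34 members and 12 of 20 groups were lower with and without them.

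The libraries of 1 number resembled each other (see the plot of ratios by replicate), so the replicate number was also fitted as a block. No member was called in that fit (3.88% of all profiles were). At the edgeR adjusted p alone, 13 members passed with the block (6.82% of all profiles did), and these were the 12 near-copies of miR-16b and dre-miR-16c-5p. Their log2 fold changes were -0.22 for dre-miR-16b (SE 0.0625) and -0.23 for dre-miR-16c-5p (SE 0.0643), each with an edgeR adjusted p of 0.0432. In 3 of 3 pairs the AA library was below the CTR library of the same number for both. The pairs were not counted over all profiles, and the pairing was taken from these data. The adjusted p was 0.0978 for both with edgeR's block fit on distinct profiles, and 0.0705 for dre-miR-16b and 0.0719 for dre-miR-16c-5p with DESeq2 and the block. Without composition factors, which moves the median of all profiles up by 0.20, the values were -0.04 for dre-miR-16b and -0.02 for dre-miR-16c-5p.

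IGF1 and CTR were compared to ask whether the family responds to the growth factor without amino acids. This comparison uses the same CTR libraries as AA vs CTR. dre-miR-457a averaged 17.9 ± 1.56 normalised counts in IGF1 and 32.3 ± 6.59 in CTR, and dre-miR-15a-5p averaged 6522 ± 337 in IGF1 and 7465 ± 474 in CTR (SD, n = 3). dre-miR-16c-5p averaged 54418 ± 2048 in IGF1 and 59791 ± 5005 in CTR. Its IGF1 library was below the CTR library of the same number in 3 of 3 pairs, although the groups overlapped. The pairs were not counted over all profiles, and the pairing was taken from these data.

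edgeR called 0 of the 34 member profiles between IGF1 and CTR, against 0.21% of all profiles, DESeq2 called 0 (1.15% of all profiles), and 1 member had an unadjusted edgeR p under 0.05 (7.66% of all profiles). It was dre-miR-457a, with a log2 fold change of -0.85 ± 0.32 (SE, 95% interval -1.56 to -0.14) and an edgeR adjusted p of 0.571. Its fold change stayed between -1.02 and -0.70 with any library left out. With the replicate block 0 members were called (1.57% of all profiles were) and 0 passed the adjusted p alone (3.36%). The log2 fold changes of dre-miR-15a-5p (-0.20, 95% interval -0.52 to 0.11) and ccr-miR-15a (-0.20 ± 0.15, SE) were smaller, each with an edgeR adjusted p of 0.953. These 3 members were lower in IGF1 without overlap, as were 3.88% of all profiles, and 0 members were higher without overlap, as were 6.93%. The 2 miR-15a profiles followed each other at a ratio of 4.25 to 5.07 in single libraries, so they are not independent members.

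By sign alone, 33 of 34 members and 19 of 20 groups were lower in IGF1 than in CTR, against 46.8% of all profiles, and both counts held under each of the 5 other scalings and fits compared. Neither count is over separate measurements. The members hold 12 near-copies of miR-16b. The groups hold the 8 low miR-16 profiles, which share 1 pattern, and dre-miR-15a-5p and ccr-miR-15a, which follow each other. The sizes were small, with a median of -0.09 for the members and 0.02 for all profiles. The count rested on single libraries of the unpaired fit, since 12 of 34 members were lower without CTR replicate 2 and 13 without IGF1 replicate 1. With a replicate number left out of all groups it was 31 to 33. The exception in the full set was dre-miR-15a-3p, a 3p arm whose seed was not checked, with a log2 fold change of 0.15.

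**Figure D3:**
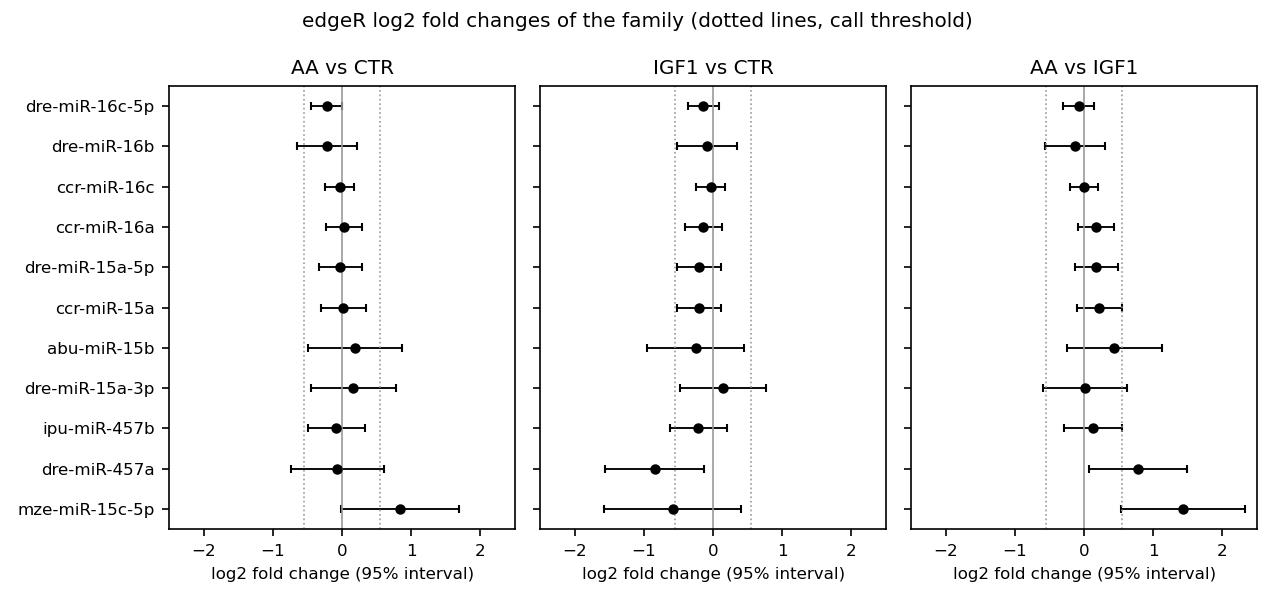
edgeR log2 fold changes (x axes) of 11 family profiles in the AA vs CTR, IGF1 vs CTR and AA vs IGF1 comparisons, with 95% intervals and dotted lines at the fold threshold of 0.55 to either side. The intervals of the abundant miR-16 and miR-15a profiles reach no further from 0 than -0.65, those of dre-miR-16c-5p (AA vs CTR), dre-miR-457a (IGF1 vs CTR and AA vs IGF1) and mze-miR-15c-5p (AA vs IGF1) do not cross 0, and no profile was called.

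AA and IGF1 were compared directly, to set the nutrient beside the hormone. mze-miR-15c-5p was 18.1 ± 4.66 in AA and 6.85 ± 1.22 in IGF1, and dre-miR-457a was 30.8 ± 11.6 in AA and 17.9 ± 1.56 in IGF1 (SD, n = 3). These 2 members were higher in AA without overlap, as were 5.67% of all profiles, and 0 members were lower without overlap, as were 6.51%.

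edgeR called 0 of the 34 member profiles between AA and IGF1, against 2.1% of all profiles, DESeq2 called 0 (2.94% of all profiles), and 2 members had an unadjusted edgeR p under 0.05 (9.55% of all profiles). mze-miR-15c-5p had a log2 fold change of 1.42 ± 0.41 (SE, 95% interval 0.53 to 2.32) and an edgeR adjusted p of 0.113. With the replicate block it was called in edgeR (adjusted p = 0.0408, and 0.0378 on distinct profiles), where 4.83% of all profiles were (12.2% passed the adjusted p alone), and it was also called without composition factors (adjusted p = 0.0459), but not with DESeq2 (0.182) or DESeq2 with the block (0.126). Since this profile passed the filter only through AA, a higher level in AA was a condition of its being tested, and these calls are given as a description. dre-miR-457a had a log2 fold change of 0.78 ± 0.32 (95% interval 0.08 to 1.49) with an edgeR adjusted p of 0.333.

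The abundant members differed less between AA and IGF1. Their log2 fold changes were -0.08 for dre-miR-16c-5p, -0.13 for dre-miR-16b, 0.18 for dre-miR-15a-5p and 0.22 for ccr-miR-15a, and those of dre-miR-16c-5p and dre-miR-16b were 0.15 and 0.09 without composition factors. The median of the 34 members was -0.13, against -0.06 for all profiles, and 22 of 34 were lower in AA, beside 59.6% of all profiles. Without composition factors 2 of 34 were lower, so no direction is given for the family here. That setting moves the median of all profiles up by 0.23, to 0.17. Relative to the median of all profiles, 21 of 34 members and 10 of 20 groups were lower with and without these factors. The intervals lay within a log2 fold change of 1 to either side for 33 members in AA vs CTR, 32 in IGF1 vs CTR and 29 in AA vs IGF1. For the others larger differences were within the interval, as for dre-miR-457a and mze-miR-15c-5p.

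The level of miR-16b followed the replicate number far more than the treatment. For dre-miR-16b the replicate number accounted for 87.1% of the variance of log2(normalised count + 1) over the 9 libraries and the group for 11.2%. A replicate share at least as high was found for 24 of 953 profiles (2.52%), some of them its own near-copies. For ipu-miR-16b, the near-copy with the highest share, 18 profiles (1.89%) were at least as high. For dre-miR-16c-5p the replicate number accounted for 32.8% and the group for 53.4%. For dre-miR-457a and mze-miR-15c-5p the group accounted for 59.4% and 67.5%. Group shares at least as high as in dre-miR-16c-5p, dre-miR-457a and mze-miR-15c-5p were found for 12.9%, 10.1% and 7.14% of all profiles. mze-miR-15c-5p passed the count filter only through AA, so its group share is given as a description. The medians over the members were 14.2% for the group and 49.1% for the replicate number, and those over all profiles were 25.2% and 49.3%. With 1 profile for each of the 20 groups of near-identical entries the medians were 18.0% and 45.3%. The members with a replicate share over 70% were the 12 profiles of the miR-16b group, and 13.1% of all profiles were over 70%.

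The proportion of the 2 leading forms showed the same order in every group. The ratio of dre-miR-16b to dre-miR-16c-5p, which does not depend on library scaling, was 0.534 in AA, 0.555 in IGF1 and 0.530 in CTR for replicate 1, 0.827 in AA, 0.871 in IGF1 and 0.818 in CTR for replicate 2, and 0.719 in AA, 0.730 in IGF1 and 0.721 in CTR for replicate 3. The ranges of the 3 numbers did not overlap, whereas the group means were 0.693 ± 0.148 in AA, 0.719 ± 0.158 in IGF1 and 0.690 ± 0.146 in CTR (SD, n = 3). The 12 profiles of the miR-16b group were highest in replicate 2 of all 3 groups, which held for 13.6% of all profiles. In contrast dre-miR-15a-5p, dre-miR-457a and ipu-miR-457b were lowest in replicate 2 of all 3 groups (8.81% of all profiles). What the number marks is not in the labels, and the part of culture, fish or library preparation in it was not tested.

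**Figure D4:**
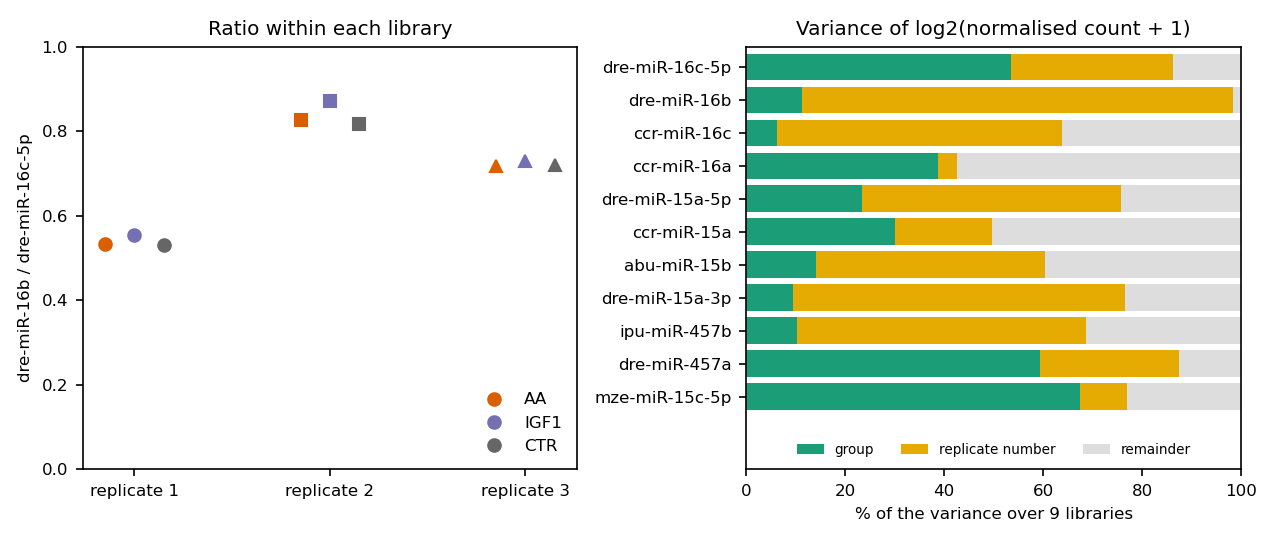
Left, the ratio of dre-miR-16b to dre-miR-16c-5p (y axis) by replicate number (x axis) with 1 point for each AA, IGF1 and CTR library, and right, stacked bars of the share of variance (x axis, %) held by group, replicate number and remainder for 11 profiles. The ratio is 0.530 to 0.555 in replicate 1, 0.818 to 0.871 in replicate 2 and 0.719 to 0.730 in replicate 3, and the replicate number holds 87.1% of the variance of dre-miR-16b.

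A second ratio compared zebrafish and carp forms of the same name. dre-miR-16c-5p over ccr-miR-16c was 4.39, 4.26 and 4.08 in AA, 4.47, 4.41 and 4.59 in IGF1, and 5.21, 4.80 and 4.53 in CTR. It was lower in every AA library than in every CTR or IGF1 library, and IGF1 and CTR overlapped. It was chosen after the values were seen and carries no test. ccr-miR-16c itself had log2 fold changes of -0.04 in AA vs CTR and in IGF1 vs CTR.

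A list of miRNAs with a related seed gave no calls. It held miR-103, miR-107, miR-195, miR-322, miR-424 and miR-503, but only miR-103 and miR-107 had tested profiles. The other listed miRNAs were thus not compared. miR-103 and miR-107, whose seed in mammals overlaps that of miR-15 and miR-16, had 28 profiles. Of these, 0 were called in any comparison by edgeR and 0 had an unadjusted p under 0.05. Their log2 fold changes ran from -0.25 to 0.19, with medians of -0.05, -0.02 and -0.02 in AA vs CTR, IGF1 vs CTR and AA vs IGF1. Many of them were near-copies, so the 28 are not separate measurements and the medians mix signs. In AA vs CTR, for example, dre-miR-103 and oni-miR-103 were each at -0.11, and abu-miR-107 and mze-miR-107 each at 0.18. Other miRNAs that act in mammals on cyclins, their kinases or E2F (let-7, miR-34, miR-449, miR-26, miR-17, miR-20, miR-93 and miR-106) had 163 profiles. Among them 0 passed in AA vs CTR (2.31% of all profiles did), 1 was lower in IGF1 than CTR (0.21% of all profiles were called), and 1 was higher and 1 lower in AA than IGF1 (2.1%). An unadjusted p under 0.05 was found for 6 of the 163 in AA vs CTR, 18 in IGF1 vs CTR and 7 in AA vs IGF1, against 6.3%, 7.66% and 9.55% of all profiles. All of these calls were miR-26 entries. ssa-miR-26a-4-3p, a 3p arm, had edgeR log2 fold changes of -1.55 in IGF1 vs CTR (adjusted p = 0.0460) and 1.26 in AA vs IGF1 (adjusted p = 0.0294). ola-miR-26 had an edgeR log2 fold change of -0.98 in AA vs IGF1 (adjusted p = 0.0183). Both lists were taken by miRNA number with either arm. Whether single arms share the seed or the targets named here was not checked.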

How the data were processed

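The authors trimmed reads, mapped them with Bowtie2 to mature miRNAs of 13 teleost species and deposited raw counts per entry. A second deposited table holds a signal, the normalised counts, in which every count of a library is divided by 1 size factor (0.695 to 1.36). Counts over all entries ran from 81.7 to 138 (in units of 1e6) per library. Each library thus held more counts than the reads that the study reports for its whole group, so reads were counted under more than 1 entry. The mapping setting behind this was not given in the sources used here, and sequences were not used.

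Raw counts were tested in R 4.3.3 with edgeR 4.0.16 (TMM, glmQLFit, glmQLFTest, all 9 libraries, group alone) over 1769 entries (mean count of 10 or more, as in the study's methods). DESeq2 1.42.0 was an alternative. Calls needed an adjusted p (Benjamini-Hochberg) up to 0.05 and a log2 fold change of 0.55 (1.46-fold) or more in either direction. The scripts were tested on simulated counts. Named were the highest profile of each number, letter and arm, the largest change and smallest p per comparison, and any profile called in an alternative.

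Deviations of same-numbered libraries from their group means correlated at 0.266 to 0.553 (9 pairs), others at -0.471 to 0.147 (18 pairs), so the numbers were taken to pair the libraries, on the data alone. Such deviations cancel out within a group. The low values of the 18 pairs thus follow in part from those of the 9 and are not separate evidence. The members, lists and alternatives were chosen with earlier results of these data known. Near-identical entries collapsed, fits combining the block with other choices, and replicate numbers left out of all groups were added after seeing the data.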

Additional observations from a re-analysis of the deposited data

Results flagged for a closer look

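ssa-miR-15e-5p, an entry under the count filter and so in no comparison, had counts above the control level. Its normalised mean was 3.88 in IGF1 and 0.614 in CTR, from raw counts of 5, 3 and 4 in IGF1 and 0, 2 and 0 in CTR. AA had raw counts of 5, 1 and 3 and a normalised mean of 2.67. Every IGF1 library was above every CTR library, at counts too low for a test. Among the tested profiles, 6.93% were higher in IGF1 than in CTR without overlap. The entry comes from the 46 family entries under the filter. Of these, abu-miR-15c-5p went the other way, with raw counts of 0, 0 and 0 in IGF1 and 2, 1 and 1 in CTR.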

How the results depend on the processing

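Over 45 results of 15 named profiles, 1002 of 1074 values under an alternative kept direction and side of the threshold, 3 were newly called and 69 changed sign, none of them in a result with an absolute log2 fold change over 0.15. Called members changed to 13 in AA vs CTR with the replicate block and the adjusted p alone, and to 1 in AA vs IGF1 with the replicate block, the block on distinct profiles, the block with the adjusted p alone, and no composition factors. That was mze-miR-15c-5p (log2 fold change 1.43, 1.46 and 1.65 with the block, the block on distinct profiles and no composition factors). The block changed no other call.

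The median of the members was -0.038 (AA vs CTR) and 0.092 (AA vs IGF1) without composition factors. In a fit of zebrafish entries alone it was -0.034, -0.17 and 0.14 in AA vs CTR, IGF1 vs CTR and AA vs IGF1. That fit holds only the members with a zebrafish name, so its median mixes a change of members with a change of fit. With libraries left out the median of the members ran from -0.32 to -0.0052, -0.24 to 0.10 and -0.27 to 0.049. Over all zebrafish counts the family share differed by -0.0057 percentage points in AA vs CTR and -0.106 in IGF1 vs CTR. miR-21 took 52.2% of these counts in AA and 54.4% in both IGF1 and CTR. With miR-21 out of the denominator the differences were -0.118 in AA vs CTR and -0.232 in IGF1 vs CTR. The family share is then larger, so the differences with and without miR-21 are not on the same scale. The arm share in AA vs IGF1 differed by -0.0997 to 0.0258 percentage points with libraries left out.

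Without composition factors, the AA vs CTR log2 fold changes were 0.16 for ccr-miR-16c, 0.18 for dre-miR-15a-5p (0.011 with upper-quartile factors), 0.12 for dre-miR-457a and 0.11 for ipu-miR-457b, and those in AA vs IGF1 were 0.091 for dre-miR-16b, gmo-miR-16b-5p, ssa-miR-16a-5p and tni-miR-16, 0.15 for dre-miR-16c-5p and 0.22 for ccr-miR-16c. ccr-miR-16c in AA vs IGF1 was also 0.069 with upper-quartile factors, 0.0056 with no filter, 0.034 on distinct profiles (0.032 with the block), 0.023 with only the groups compared and 0.019 with near-identical entries collapsed. The cause was not tested.

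With libraries left out, the AA vs CTR ranges were -0.067 to 0.20 for ccr-miR-15a, -0.070 to 0.13 for ccr-miR-16a, -0.066 to 0.0091 for ccr-miR-16c, -0.12 to 0.14 for dre-miR-15a-5p, -0.36 to 0.17 for dre-miR-457a and -0.28 to 0.16 for ipu-miR-457b. In IGF1 vs CTR they were -0.073 to 0.0064 for ccr-miR-16c, -0.060 to 0.34 for dre-miR-15a-3p, and -0.24 to 0.10 for dre-miR-16b, gmo-miR-16b-5p, ssa-miR-16a-5p and tni-miR-16. In AA vs IGF1 they were -0.026 to 0.064 for ccr-miR-16c, -0.17 to 0.27 for dre-miR-15a-3p, -0.32 to 0.029 for the same 4 miR-16 profiles, -0.11 to 0.00026 for dre-miR-16c-5p and -0.022 to 0.28 for ipu-miR-457b. How depth limits single members was not tested.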
